A study of Mus musculus with 18 samples.

Results

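Calcitonin gene-related peptide (CGRP) was described here at the transcript level through 8 genes, which were the rows of the count table paired with the symbols *Calca*, *Calcb*, *Adm*, *Calcrl*, *Ramp1*, *Ramp2*, *Ramp3* and *Crcp*, out of 55573 genes in all. They were followed in the dorsal horn (dorsal horn of spinal cord, DHSC) on the injected side, in adult C57BL/6J mice 2 h after 2% formalin was given into the left hindpaw. Formalin is an irritant that triggers nocifensive behavior in phases separated by a quiet interphase. The 18 samples were 6 males, 6 F1/proestrus females, which had a short-lasting interphase and were in proestrus, and 6 F2/metestrus females, which had a long-lasting interphase and were in metestrus. Behavior and cycle stage were used together to choose the females, so their parts cannot be told apart. All mice had received formalin, and no level without formalin was measured. The samples were described as biological replicates.

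CGRP is a vasodilator neuropeptide that is best known from peptidergic nociceptors, whose central terminals release it in the superficial dorsal horn. *Calca* encodes alpha-CGRP and, by alternative splicing, calcitonin, while *Calcb* encodes beta-CGRP. The CGRP receptor pairs the G protein-coupled receptor encoded by *Calcrl* with the accessory protein encoded by *Ramp1*, whereas pairing with the products of *Ramp2* or *Ramp3* yields receptors for adrenomedullin, the product of *Adm*. The protein encoded by *Crcp* couples the CGRP receptor to its signalling and is also a subunit of RNA polymerase III. Most CGRP in the dorsal horn is made in dorsal root ganglia, whose cell bodies lie outside the cord, and motor neurons of the ventral horn also make it.

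Both CGRP genes lie on chromosome 7 in GRCm38, *Calca* (ENSMUSG00000030669) on the minus strand from 114631478 to 114636357 and *Calcb* (ENSMUSG00000030666) on the plus strand from 114718643 to 114723365. The stretch of 111 bases that encodes the mature peptide of 37 residues was read from the GENCODE vM21 transcripts of both genes, and is shown because it sets how far reads of the paralogs can be told apart. Capitals mark the 5 bases at which the sequences differ.
Calca: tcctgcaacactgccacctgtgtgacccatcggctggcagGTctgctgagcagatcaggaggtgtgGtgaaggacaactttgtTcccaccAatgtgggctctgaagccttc
Calcb: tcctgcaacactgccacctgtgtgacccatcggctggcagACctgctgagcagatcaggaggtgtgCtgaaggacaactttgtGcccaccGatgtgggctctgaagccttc
The stretches were identical at 106 bases (95.5%), and the differences change 3 residues. The longest run shared by any *Calca* and any *Calcb* transcript was 61 bases, against 14 bases at most between any pair of the 3 *Ramp* genes. Reads inside such a run have no unique place, and only uniquely mapped reads were counted. Of the 6 coding *Calca* transcripts, 1 held the CGRP stretch, so gene-level counts do not separate CGRP mRNA from calcitonin mRNA.

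The other members were *Adm* (ENSMUSG00000030790, chr7:110627661-110629820, plus strand), *Calcrl* (ENSMUSG00000059588, chr2:84330626-84425411, minus strand), *Ramp1* (ENSMUSG00000034353, chr1:91179822-91225196, plus strand) and *Ramp2* (ENSMUSG00000001240, chr11:101246028-101259546, plus strand). *Ramp3* (ENSMUSG00000041046) lies at chr11:6658521-6677475 on the plus strand and *Crcp* (ENSMUSG00000025532) at chr5:130029290-130060789 on the plus strand. Of the merged exons of *Ramp2*, 1103 of 3301 bases also belong to *Vps25* on the same strand, so its count is uncertain to the extent that reads were shared. *Ramp3* shares 101 exon bases with *Gm11978* on the opposite strand, which had at most 31 counts in any sample.

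Between 73590509 and 125724156 reads were counted on genes per sample, and 3 counts, taken as the detection floor, corresponded to 0.0239 to 0.0408 counts per 1000000. All 8 members were counted in every sample, with 68 counts at the lowest, for *Calcb* in male 5. Library numbers run from 27 to 35 for replicates 1 to 3 of the groups and from 188 to 196 for replicates 4 to 6, and the 9 libraries of this second series differed from the 9 of the first in 6637 of 24038 genes (27.6%). One library stood apart in sensory neuron genes. F1/proestrus replicate 5 had a sum of 130 RPKM (reads per 1000 bases of merged exons and 1000000 counted reads) over 8 markers of sensory ganglion neurons, against 1.21 to 2.30 RPKM in the other 17 samples. All 8 markers were highest in that sample, and *Mrgprd*, a receptor of nonpeptidergic nociceptors, had no count in 10 others. Results that rest on this sample are therefore given with and without it. The sum of 8 dorsal horn neuron markers was 99.9 to 117 RPKM in all 18 samples.

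*Calca* and *Calcb* were the members that varied most. In counts per 1000000 (CPM, after TMM normalization), *Calca* ranged from 7.38 to 25.5 in males (median 14.0, mean 16.0 ± 6.55, SD, n = 6). It ranged from 6.34 to 162 CPM in F1/proestrus (median 20.7, mean 42.4 ± 59.2, n = 6) and from 21.0 to 33.5 CPM in F2/metestrus (median 23.3, mean 25.4 ± 5.08, n = 6). The groups overlapped, and the highest value was that of F1/proestrus replicate 5, without which the F1/proestrus mean was 18.5 ± 9.53 CPM (n = 5). *Calcb* ranged from 0.757 to 12.5 CPM in males (median 5.66, mean 6.59 ± 4.25, n = 6). It ranged from 1.73 to 38.8 CPM in F1/proestrus (median 8.73, mean 12.9 ± 13.8, n = 6) and from 6.97 to 12.9 CPM in F2/metestrus (median 10.7, mean 10.4 ± 1.93, n = 6). The same F1/proestrus sample was the highest, and without it the F1/proestrus mean of *Calcb* was 7.68 ± 5.95 CPM (n = 5). In this bulk tissue, fewer cells that make a transcript and less of it per cell cannot be told apart.

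The paralogs did not keep a fixed proportion. *Calca* had 1.75 to 4.24 times the counts of *Calcb* in 17 samples and 9.75 times in male 5, the sample with the fewest counts of both genes. In F1/proestrus replicate 5, in which both were highest, the ratio was 4.17. *Calca* differed 25.6-fold and *Calcb* 51.3-fold between their lowest and highest samples, and 5.28-fold and 21.2-fold when F1/proestrus replicate 5 was left out. The highest over lowest ratio of each of the other 6 members was between 1.29 (*Ramp2*) and 1.81 (*Ramp3*).

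**Figure D1:**
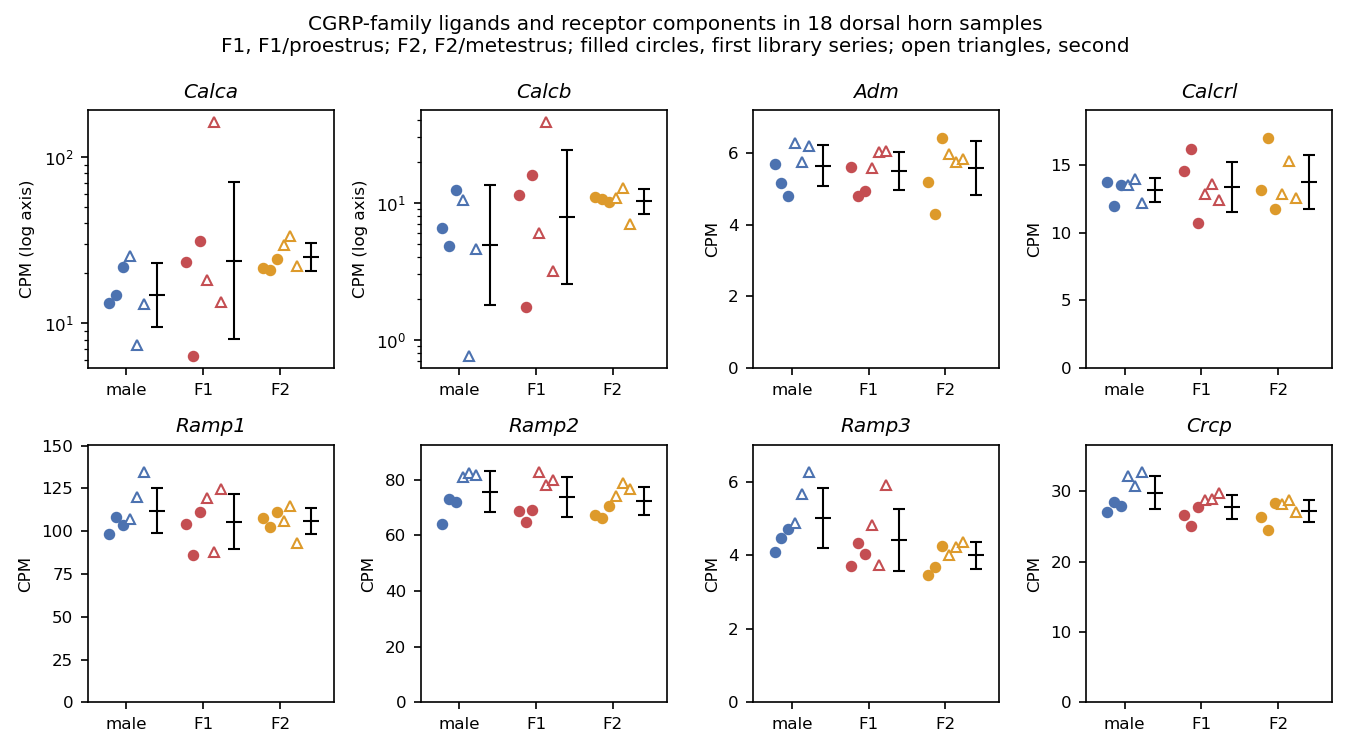
CPM of the 8 genes in each sample by group (F1, F1/proestrus, F2, F2/metestrus), with filled circles for the first and open triangles for the second library series. Black marks show the mean ± SD of 6 samples, of log2 CPM for *Calca* and *Calcb*, whose axes are logarithmic. The point at 162 CPM for *Calca* and at 38.8 CPM for *Calcb* is F1/proestrus replicate 5, and the 3 receptor accessory genes, *Calcrl*, *Crcp* and *Adm* spread far less.

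*Adm*, which encodes a vasodilator peptide related to CGRP, was low and even. It ranged from 4.81 to 6.28 CPM in males (median 5.72), from 4.80 to 6.06 CPM in F1/proestrus (median 5.59) and from 4.29 to 6.42 CPM in F2/metestrus (median 5.79), so that the 3 ranges overlapped almost fully. The means were 5.65 ± 0.579, 5.50 ± 0.535 and 5.58 ± 0.747 CPM (SD, n = 6 each).

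*Calcrl*, the receptor that CGRP and adrenomedullin share, ranged from 11.9 to 14.0 CPM in males (median 13.5), from 10.7 to 16.2 CPM in F1/proestrus (median 13.2) and from 11.7 to 17.0 CPM in F2/metestrus (median 12.98). The group means of 13.2 ± 0.861, 13.4 ± 1.88 and 13.8 ± 1.98 CPM (SD, n = 6 each) lay closer to each other than the samples within any group. *Ramp1*, whose product gives the receptor its affinity for CGRP, was the member with the most reads in 17 of 18 samples, all but F1/proestrus replicate 5, in which *Calca* had more. It ranged from 98.1 to 134 CPM in males (median 108), from 85.9 to 125 CPM in F1/proestrus (median 108) and from 93.1 to 115 CPM in F2/metestrus (median 107). Its means were 112 ± 13.1, 106 ± 16.1 and 106 ± 7.56 CPM (SD, n = 6 each), and the groups overlapped.

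*Ramp2* ranged from 63.9 to 82.3 CPM in males (median 77.0), from 64.8 to 82.6 CPM in F1/proestrus (median 73.7) and from 66.2 to 78.7 CPM in F2/metestrus (median 72.2). Inside each group the samples of the second library series were the higher ones. *Ramp3* ranged from 4.09 to 6.26 CPM in males (median 4.79), from 3.70 to 5.91 CPM in F1/proestrus (median 4.18) and from 3.45 to 4.35 CPM in F2/metestrus (median 4.11). *Crcp* ranged from 27.1 to 32.7 CPM in males (median 29.6), from 25.0 to 29.7 CPM in F1/proestrus (median 28.3) and from 24.5 to 28.7 CPM in F2/metestrus (median 27.6). For *Crcp* 3 of 6 males lay above all 12 females, and for *Ramp3* 1 of 6 did. These were males 4, 5 and 6 for *Crcp* and male 6 for *Ramp3*. All were of the second library series, in which both genes were higher.

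To compare genes with each other, levels were set per length as RPKM over the merged exons. *Ramp1* (35.7 ± 4.09 RPKM, SD, n = 18) exceeded *Ramp2* (22.4 ± 1.93) in 18 of 18 samples, and *Ramp2* exceeded *Crcp* (17.8 ± 1.35) in 18 of 18. *Crcp* exceeded *Calca* (16.6 ± 20.4) in 15 of 18 samples, and the *Calca* mean fell to 11.9 RPKM without F1/proestrus replicate 5. *Calca* exceeded *Calcb* (7.87 ± 6.59) in every sample, and *Calcb* exceeded *Adm* in 14 of 18. The lowest members were *Adm* (3.44 ± 0.366), *Ramp3* (3.24 ± 0.571) and *Calcrl* (2.75 ± 0.322), whose order was not the same in all samples: *Adm* exceeded *Ramp3* in 10 of 18 and *Ramp3* exceeded *Calcrl* in 12 of 18. When levels were set over the longest transcript instead, *Ramp2* (50.0 RPKM) passed *Ramp1* (46.4 RPKM) and led in 14 of 18 samples, since its merged exons (3301 bases) are longer than its longest transcript (1478 bases). Over the longest transcript *Calca* (28.1 RPKM) also ranked above *Crcp* (19.0 RPKM) and exceeded it in 11 of 18 samples. The order of *Ramp1* and *Ramp2*, and that of *Calca* and *Crcp*, thus rest on the length that is used. Levels of *Ramp2* per length, and its ratios and shares, also carry the uncertainty of the 1103 merged exon bases shared with *Vps25*.

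Per length, the receptor gene *Calcrl* was outnumbered by *Ramp1* and *Ramp2*. It was near the level of *Ramp3*, which exceeded it in 12 of 18 samples over merged exons. Per merged exon length, *Ramp1* was at 13.2 ± 2.46 times and *Ramp2* at 8.26 ± 1.24 times the level of *Calcrl* (SD, n = 18), while *Ramp3* was at 1.20 ± 0.275 times its level. Over the longest transcripts the ratios were 17.1 ± 3.20 for *Ramp1*, 18.4 ± 2.76 for *Ramp2* and 1.24 ± 0.284 for *Ramp3*, so that the order of the first 2 turned. *Ramp1* made up 58.2 ± 1.57% of the summed level of the 3 genes in males, 57.6 ± 3.03% in F1/proestrus and 58.6 ± 2.53% in F2/metestrus (SD, n = 6 each). *Ramp3* made up 5.69 ± 0.334%, 5.29 ± 0.673% and 4.84 ± 0.412% in the same groups. Over the longest transcripts the shares across all 18 samples were 46.4% for *Ramp1*, 50.2% for *Ramp2* and 3.36% for *Ramp3*.

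**Figure D2:**
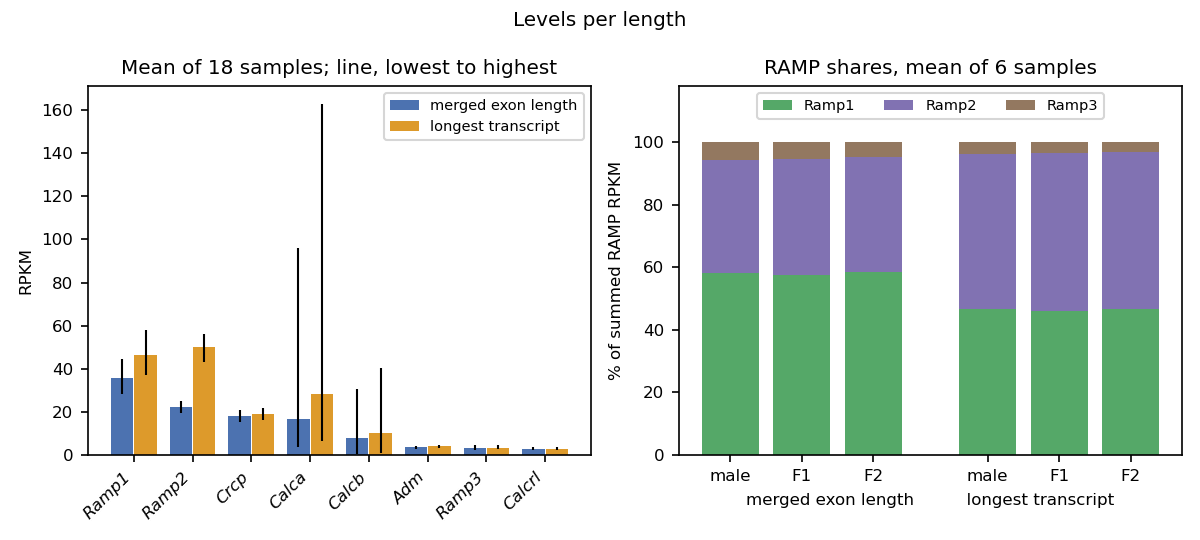
Left, mean RPKM of the 8 genes over 18 samples, with a line from the lowest to the highest sample, over merged exons (blue) and over the longest transcript (orange). Right, share of each accessory gene in their summed RPKM, as the mean of 6 samples a group, by both lengths. The share of *Ramp3* is 5.69% in males, 5.29% in F1/proestrus and 4.84% in F2/metestrus over merged exons, and the length used moves *Ramp1* from 58.1% to 46.4%.

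The comparison of F2/metestrus with F1/proestrus asked whether the dorsal horn of females with the longer interphase differed in transcripts. With edgeR's quasi-likelihood test at a false discovery rate (FDR) of 5%, 0 of the 8 members and 0 of 24042 genes (0%) differed. Among all genes 596 had an unadjusted p under 0.05 and DESeq2 called 2, whereas no member had an unadjusted p under 0.05. *Calca* had a log2 fold change of -0.75 (SE 0.58, 95% interval -1.98 to 0.49), which became 0.45 (SE 0.29, -0.16 to 1.07) without F1/proestrus replicate 5. *Calcb* likewise had -0.31 (SE 0.53, -1.45 to 0.82), which became 0.44 (SE 0.41, -0.44 to 1.31) without that sample. Both estimates thus changed sign when that library was left out. The intervals were narrow for the receptor: 0.04 (-0.19 to 0.27) for *Calcrl*, 0.0016 (-0.19 to 0.19) for *Ramp1* and -0.03 (-0.18 to 0.11) for *Ramp2*. They were -0.15 (-0.40 to 0.10) for *Ramp3*, -0.03 (-0.16 to 0.09) for *Crcp* and 0.02 (-0.20 to 0.23) for *Adm*. The median log2 fold change was -0.03 over the 8 members and -0.00038 over all genes tested.

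The comparison of males with females, in which the 12 females were a single condition, asked for differences between the sexes after formalin. No member passed the FDR (0 of 8), while 49 of 24862 genes did (0.197%), 0.149% higher and 0.0483% lower in males. The female samples are those of the comparison above, so the results are not independent of each other. An unadjusted p under 0.05 was found for 3 of the 8 members and for 2416 of the 24862 genes. *Ramp3* was at 5.01 ± 0.806 CPM in males (n = 6) and 4.21 ± 0.656 CPM in females (n = 12), a log2 fold change of 0.25 (SE 0.11, 95% interval 0.03 to 0.47, edgeR adjusted p = 0.439). *Crcp* was at 29.8 ± 2.34 and 27.5 ± 1.62 CPM, a log2 fold change of 0.12 (SE 0.05, 0.01 to 0.23, edgeR adjusted p = 0.479). *Calca* was at 16.0 ± 6.55 and 33.9 ± 41.0 CPM, a log2 fold change of -1.09 (SE 0.49, -2.12 to -0.06, edgeR adjusted p = 0.493). Across all alternatives the lowest adjusted p was 0.150 for *Ramp3*, 0.145 for *Crcp* and 0.328 for *Calca*.

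The value for *Calca* rested on F1/proestrus replicate 5. Without it the log2 fold change between the sexes was -0.48 (SE 0.27, -1.05 to 0.09, edgeR adjusted p = 0.583), against a female mean of 22.3 ± 7.88 CPM (n = 11). DESeq2, which replaces counts that it takes for outliers, set the 18514 *Calca* counts of that sample to 2353 and gave -0.48 (SE 0.29). *Calcb* had -0.82 (SE 0.50, -1.87 to 0.22) with all samples and -0.48 (SE 0.43, -1.36 to 0.41) without that sample. Within the first library series alone the difference in *Calca* was -0.37 (SE 0.34), and within the second, which holds F1/proestrus replicate 5, it was -1.61 (SE 0.77). For *Ramp3* the values within series were 0.16 (SE 0.10) and 0.32 (SE 0.15). A test of whether the difference between males and females itself differed between the series called 0 of 8 members and 0 of 26075 genes (edgeR, smallest adjusted p = 0.970, 1238 genes with an unadjusted p under 0.05).

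The remaining members had log2 fold changes between the sexes of 0.08 (-0.08 to 0.24) for *Ramp1*, 0.05 (-0.08 to 0.18) for *Ramp2*, -0.04 (-0.22 to 0.13) for *Calcrl* and 0.03 (-0.15 to 0.20) for *Adm*. The median was 0.04 over the 8 members and -0.0013 over all genes tested. Markers of 2 other cell types had higher estimates in males, though few passed the FDR. All 6 Schwann cell markers were higher in males (median log2 fold change 0.64), 5 of them with an unadjusted edgeR p under 0.05. Of these 6 markers 1 was called, *Ncmap* (0.67, edgeR adjusted p = 0.00654). Their sum was 329 to 880 RPKM in males, 219 to 456 RPKM in F1/proestrus and 220 to 335 RPKM in F2/metestrus. The upper ends were single libraries, since the highest sum was 494 RPKM without male 5 and 297 RPKM without F1/proestrus replicate 5, which was the highest female. All 6 neutrophil markers were higher in males (median log2 fold change 1.39), each with an unadjusted edgeR p under 0.05. Of these 6 markers 1 was called, *Mpo* (1.37, edgeR adjusted p = 0.0161). Their sum was 6.31 to 34.0 RPKM in males (at most 18.9 RPKM without male 1), 2.15 to 10.4 RPKM in F1/proestrus and 6.33 to 11.1 RPKM in F2/metestrus. The part of these 2 cell types in the values of *Ramp3* and *Crcp* was not tested.

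**Figure D3:**
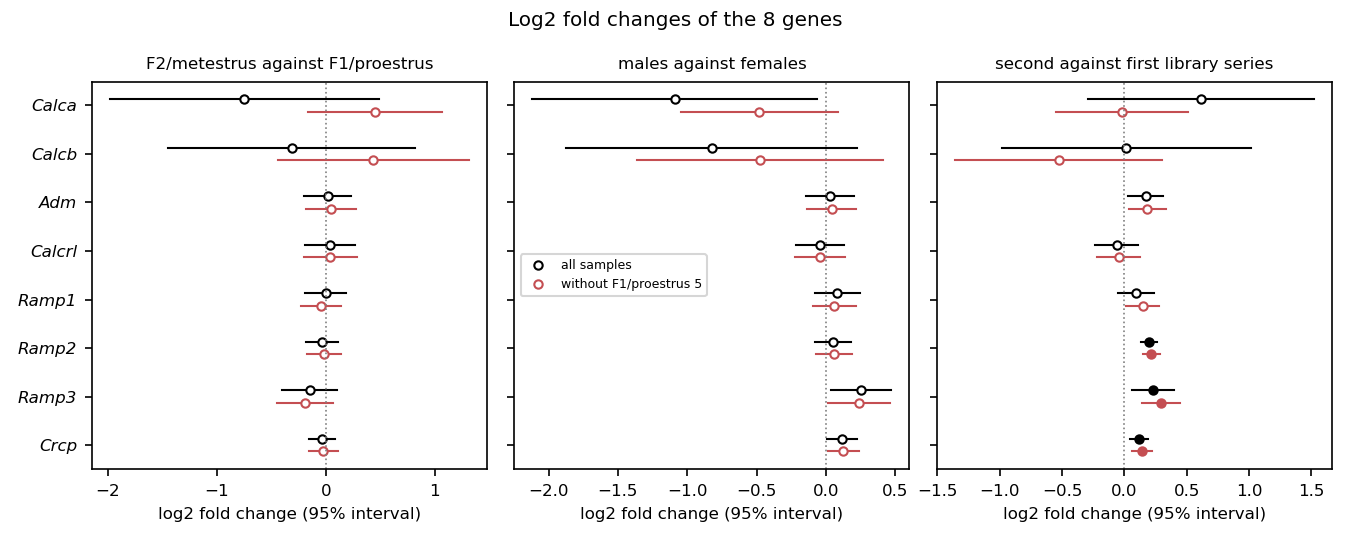
Log2 fold changes of the 8 genes in 3 comparisons from edgeR, with 95% intervals, for all samples (black) and without F1/proestrus replicate 5 (red). Filled points passed the FDR of 5%, which only *Ramp2*, *Ramp3* and *Crcp* did, between the library series. The points of *Calca* and *Calcb* move most when the sample is left out.

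A set of 5 motor neuron markers, among them the acetylcholine genes *Chat*, *Slc5a7* and *Slc18a3*, which some dorsal horn interneurons also express, was followed because motor neurons make CGRP. Their sum ranged from 7.22 to 38.6 RPKM in males (median 21.0), from 9.84 to 45.1 RPKM in F1/proestrus (median 29.4) and from 29.2 to 42.5 RPKM in F2/metestrus (median 33.2). Male 5 and F1/proestrus replicate 2 had the lowest sums, and also the lowest *Calca* and *Calcb*. The narrow range of F2/metestrus in the markers went with the narrow range of both CGRP genes in that group. Over the 18 samples, log2 CPM of *Calcb* and the mean centred log2 CPM of the 5 markers had Pearson's r = 0.91 (permutation p = 1e-05, the smallest that 100000 resamples give, adjusted p = 0.00016 over 16 relations) and Spearman's rho = 0.85 (permutation p = 4e-05, adjusted p = 0.00064). For *Calca* Pearson's r was 0.72 (permutation p = 0.00076, adjusted p = 0.00608) and Spearman's rho 0.79 (permutation p = 0.00031, adjusted p = 0.00248). These correlation tests were not among the tests planned in advance, and the permutations took no account of group or library series.

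These relations held within both library series. Pearson's r was 0.98 in the first and 0.71 in the second series for *Calca*, and 0.99 and 0.88 for *Calcb* (n = 9 each). Without F1/proestrus replicate 5 it was 0.94 for *Calca* and 0.97 for *Calcb* (n = 17). Leaving out the 2 samples farthest from the median marker level, male 5 and F1/proestrus replicate 2, gave 0.55 for *Calca* and 0.77 for *Calcb*. The motor neuron markers of F1/proestrus replicate 5 were inside the range of the other samples, with *Slc18a3* at 20.6 RPKM against 2.33 to 26.3 RPKM, while its *Calca* was at 162 CPM against at most 33.5 CPM in the others.

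The differences between groups were refitted with the motor neuron markers as a covariate and without F1/proestrus replicate 5, an alternative chosen after seeing the data. The log2 fold change of *Calca* was then 0.04 (95% interval -0.27 to 0.34) between the female groups and -0.02 (-0.28 to 0.23) between the sexes. For *Calcb* it was -0.02 (-0.39 to 0.36) and 0.15 (-0.14 to 0.44). These markers followed both genes closely in the same samples (r = 0.94 for *Calca* and 0.97 for *Calcb* without that replicate). The refit therefore cannot tell what part motor neurons had in the differences between groups, and that part was not tested. With the covariate alone and all samples kept, *Calca* had -1.23 (-2.24 to -0.21) between the female groups and -0.48 (-1.45 to 0.49) between the sexes, and neither passed the FDR.

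**Figure D4:**
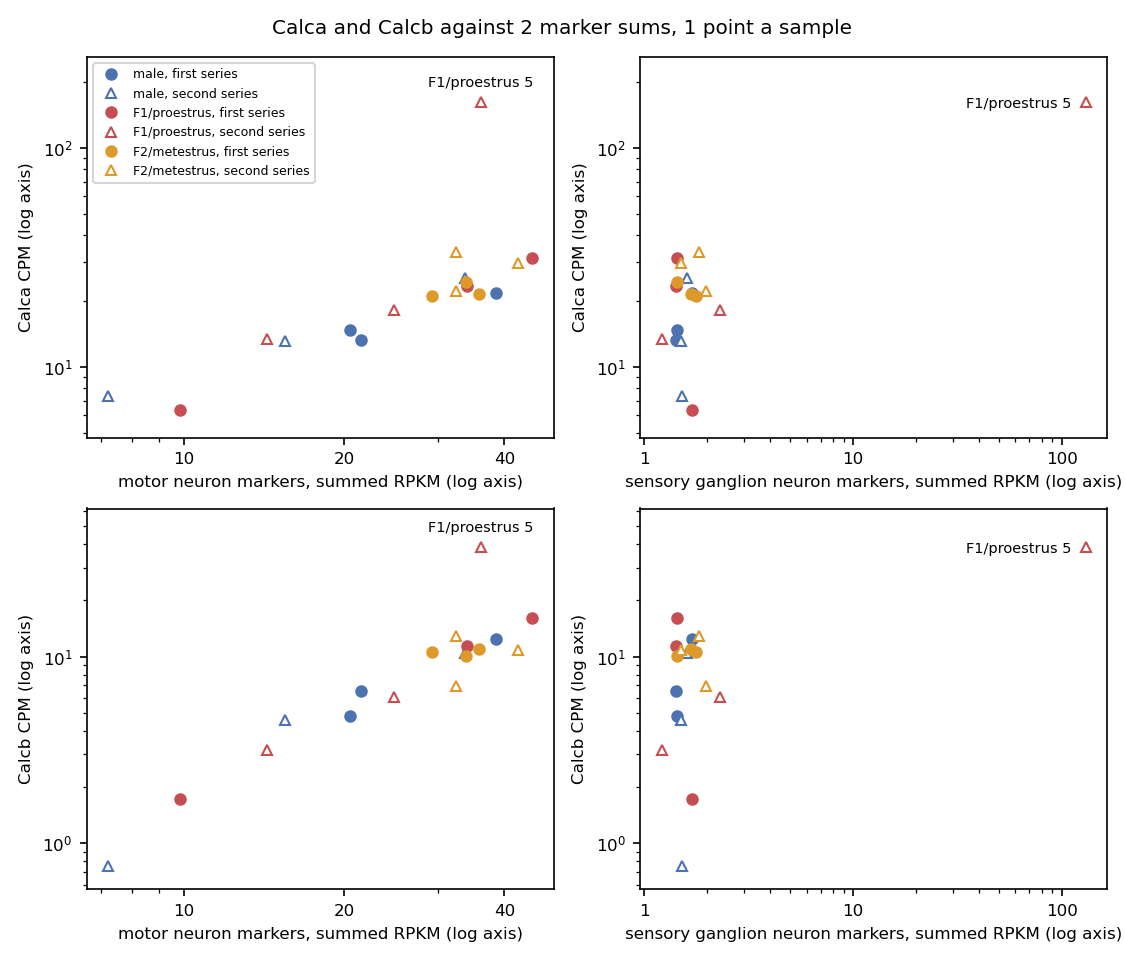
CPM of *Calca* (top) and *Calcb* (bottom) against the summed RPKM of 5 motor neuron markers (left) and of 8 sensory ganglion neuron markers (right), 1 point a sample, all axes logarithmic. Both genes rise along the motor neuron sum from 7.22 to 45.1 RPKM, and F1/proestrus replicate 5 alone lies far right on the sensory ganglion axis, at 130 RPKM.

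The other 6 members were set against the same markers. *Ramp3* had r = -0.63 (permutation p = 0.006, adjusted p = 0.032) and rho = -0.59 (permutation p = 0.0118, adjusted p = 0.0629), so that it passed by Pearson's r but not by rank. Its r was -0.28 in the first and -0.81 in the second series, and -0.71 without the 2 farthest samples. With the markers as a covariate the difference in *Ramp3* between the sexes was 0.16 (SE 0.10) in place of 0.25. Over all 18 samples no other member passed the threshold for motor neuron markers. In the first and second series r had opposite signs for *Ramp1* (0.85 and -0.62), *Ramp2* (0.45 and -0.65) and *Crcp* (0.41 and -0.52). For *Calcrl* it was -0.48 and 0.07, and for *Adm* 0.15 and 0.05. These values within series were not tested. Since *Calcrl*, *Ramp2* and *Adm* are used by vessels, the 8 members were also set against 9 endothelial markers, and none of the 8 relations passed (smallest adjusted p = 0.361 by Pearson's r and 0.152 by rank, permutation tests, both for *Calcb*). The endothelial sum was even, at 77.9 to 104 RPKM over the 18 samples.

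Between the library series, 3 of 8 members were higher in the second series and 0 lower, beside 12.4% of all genes tested higher and 15.2% lower. *Ramp2* ranged from 63.9 to 72.9 CPM (median 68.9) in the first series and from 74.0 to 82.6 CPM (median 79.7) in the second, with no overlap, and had a log2 fold change of 0.20 (SE 0.03, edgeR adjusted p = 1.04e-04). *Crcp* ranged from 24.5 to 28.4 CPM and from 27.1 to 32.7 CPM, with 7 of 9 samples of the second series above all of the first, and had 0.12 (SE 0.03, edgeR adjusted p = 0.0141, and 0.0621 with no filter on low counts). *Ramp3* ranged from 3.45 to 4.72 CPM and from 3.75 to 6.26 CPM, with 5 of 9 above all of the first, and had 0.23 (SE 0.08, edgeR adjusted p = 0.0389). The call of *Ramp3* was lost without F1/proestrus replicate 1, 4 or 6, F2/metestrus replicate 1, or male 1 or 6 (edgeR adjusted p from 0.0543 to 0.0687), with no filter (0.0727), and with endothelial (0.108) or motor neuron markers (0.0605) as a covariate. *Adm* had 0.17 (SE 0.07, edgeR adjusted p = 0.0626), and its 9 samples of the second series all lay above the median of the first. It passed with DESeq2 (adjusted p = 0.0214), with size factors in place of TMM (0.0409), and without F1/proestrus replicate 1, F2/metestrus replicate 3 or 5, or male 1 or 5 (0.0105 to 0.0450). *Calca* had 0.62 (SE 0.43, edgeR adjusted p = 0.318), and -0.019 to 0.79 with a sample left out, with no call. It passed in 1 alternative only, which was chosen after seeing the data. Without F1/proestrus replicate 5 and with the motor neuron covariate, *Calca* had 0.28 (SE 0.09, edgeR adjusted p = 0.0236). The median log2 fold change was 0.15 over the 8 members and -0.01 over all genes. What the series stand for is not given in the sources used here.

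**Figure D5:**
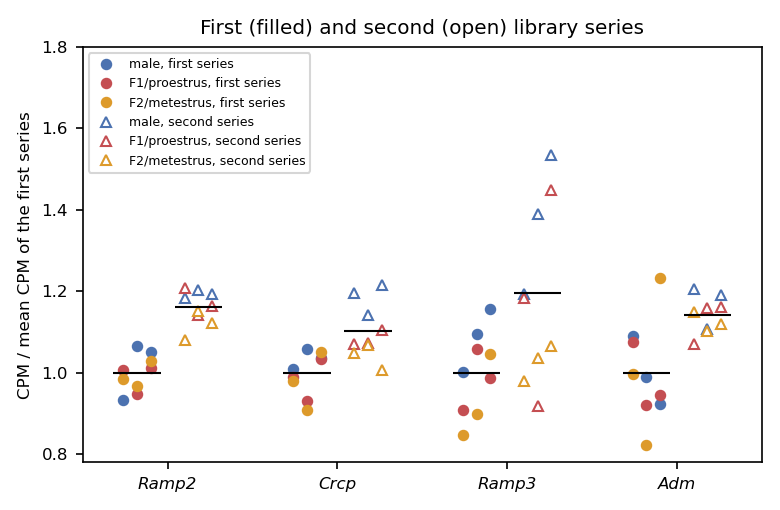
CPM of *Ramp2*, *Crcp*, *Ramp3* and *Adm*, each divided by its mean in the first library series, for the samples of the first (filled) and second series (open). Black lines are means of 9 samples. The points of *Ramp2* do not overlap between the series.

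Of 31 further genes of the pathway, 29 passed the filter on low counts. The ligands *Adm2* and *Iapp* had 0 to 4 counts, with none in 14 of 18 samples, and *Calcr*, the calcitonin receptor, ranged from 0.264 to 1.41 CPM. None of the 29 passed the FDR between the female groups (0 with an unadjusted p under 0.05) or between the sexes (6 with an unadjusted p under 0.05, beside 2416 of 24862 over all genes). Their median log2 fold changes were -0.01 and 0.02, beside medians near 0 over all genes. Between the library series 3 were higher and 8 lower, beside 12.4% of all genes tested higher and 15.2% lower. The higher ones were *Gnas* (0.19), the G protein that relays CGRP receptor signals to adenylyl cyclase, *Cpe* (0.09), a carboxypeptidase that trims peptide precursors, and *Arrb2* (0.24), an arrestin. The lower ones were *Pam* (-0.19), which amidates CGRP, the protease *Ide* (-0.34), the adenylyl cyclases *Adcy6* (-0.38) and *Adcy9* (-0.29), *Prkacb* (-0.17), *Creb1* (-0.31), *Grk3* (-0.32) and *Arrb1* (-0.37).

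The genes most like each member were taken as the 3 with the highest Pearson's r over the 18 samples in log2 CPM centred within each library series. These points share libraries and depth, and the values are descriptions. For *Calca* they were *Isl2* (r = 0.97), *Hspb8* and *Susd2* (both 0.96), and for *Calcb* they were *Prph* (0.98), *Ahnak2* (0.97) and *Lcp1* (0.94). Without F1/proestrus replicate 5 they became *Chodl*, *Kcnj14* and *Uts2* for *Calca*, and *Slc10a4*, *Uts2b* and *Slc18a3* for *Calcb* (r = 0.96 to 0.98), so that none of the first 6 remained. *Calcrl* was nearest to *Socs5* (0.93), *Gm26540* (0.90) and *Plscr4* (0.88), and *Ramp1* to *Guk1* (0.95), *Ndufb8* and *Gm6419* (both 0.93). *Ramp2* was nearest to *Mbd6* (0.84), *Ctdspl* (0.83) and *Paxx* (0.81), and *Ramp3* to *Nab2* (0.91), *Trappc6a* (0.90) and *Mtif3* (0.89). *Crcp* was nearest to *Gstm6* (0.90), *Arhgdig* (0.89) and *Gm5526* (0.88), and *Adm* to *Gm27516* (0.85), *Gm8234* (0.79) and *Zbtb8a* (0.77).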

How the data were processed

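For the 18 DHSC samples the authors deposited a table of raw read counts on the exons of 55573 Ensembl genes, made by unique mapping to mm10 with Subread and counting with featureCounts. The methods name the TruSeq kit and the labels SMART-Seq and Nextera XT libraries. The submitters' notes list Subread 2.0.3, bcl2fastq 2.20.0.422 and DESeq2 1.3.0. Whether strand was used, and how reads over several genes were treated, is not given in the sources used here. A table with the authors' own comparison (mean, log2 fold change, standard error, test statistic, p-values) was used only to pair gene IDs with symbols.

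Low counts were filtered out with filterByExpr (minimum count 10, minimum total 15). After TMM normalization, edgeR 4.0.16 in R 4.3.3 gave quasi-likelihood tests, with Benjamini-Hochberg adjustment over all genes at an FDR of 5%. For these fits the SE was derived as the absolute log2 fold change over the square root of the F statistic of the test. The 95% intervals were built from that SE with a t quantile. F2/metestrus was compared with F1/proestrus among 12 females, males with 12 females among 18 samples, and the library series with group as a covariate. All 8 members passed the filter. Levels per length used GENCODE vM21 on GRCm38, which held 55480 gene IDs. Marker scores used log2 CPM with a prior count of 2. Correlations of the members with marker scores were not among the tests planned in advance. They were tested with 100000 permutations, two-sided, using scipy 1.17.1, over all 18 samples without regard to group or library series.

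The 8 members and all gene and marker lists were chosen with earlier results of these data known. Named genes are the members, the 3 genes most like each, pathway genes past the FDR in any comparison with *Adm2*, *Iapp* and *Calcr*, and the lowest, highest and undetected markers of 8 lists (sensory ganglion, motor and dorsal horn neurons, endothelial, mural and Schwann cells, meningeal fibroblasts, neutrophils), of which 2 are not reported here. *Vps25* and *Gm11978*, which overlap members, the markers *Chat*, *Slc5a7*, *Ncmap* and *Avil*, and the genes most like *Calca* and *Calcb* without F1/proestrus replicate 5 were named after their values were seen. Alternatives were DESeq2 1.42.0, the size factors of DESeq2 for scaling, an unfiltered table, the replicate number as a block, the library series as a covariate or alone, a joint fit of the 3 groups, males against either female group, sensory ganglion or endothelial scores as covariates, another gene length, and leaving out each sample. The motor neuron score as a covariate, with and without F1/proestrus replicate 5, and 2 other settings for the most similar genes were chosen after seeing the data. The detection floors cover counting error only, while the intervals derived from the edgeR tests rest on the spread between samples.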

Additional observations from a re-analysis of the deposited data

Results flagged for a closer look

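*Calca* in F1/proestrus replicate 5, at 162 CPM, lay far from the other 5 samples of its group, of which the next reached 31.4 CPM, so that the gap took 0.839 of the range of the group. It was the one case among the 24 groups of 6 samples that were examined, 3 for each member, and chance alone marks about 1 in 20 such groups. In the same sample all 8 sensory ganglion neuron markers were at their highest. *Avil* reached 38.9 RPKM against at most 0.266 RPKM in the other 17 samples, and *Scn10a* 15.7 against at most 0.0192 RPKM. The part of these cells in the *Calca* value was not tested.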

How the results depend on the processing

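All 8 members kept their lack of a call between the female groups and between the sexes under every alternative. The number of all genes called between the female groups was 0 except with DESeq2, which called 2. Between the sexes it was 49, and 134 when the library series was a covariate, 167 by DESeq2, 16 and 13 in the first and second series alone, 23 and 32 for males against F1/proestrus and against F2/metestrus, and 78 with the sensory ganglion score. It ran from 25 to 77 when each sample was left out, with 25 without male 5, 30 without male 4 and 77 without F1/proestrus replicate 5. Between the library series, 6637 genes were called, 7402 with DESeq2 and 5832 to 6913 with a sample left out, and the 3 members called became 1 (*Ramp2*) with no filter on low counts and 2 to 4 with a sample left out. The cause of these changes was not tested.

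Some log2 fold changes changed sign, and none of these passed the FDR. Between the female groups *Ramp1* (0.0016) was -0.083 in the second series alone, -0.052 with the sensory ganglion score, -0.018 with the motor neuron score and -0.099 with the latter and F1/proestrus replicate 5 left out. *Adm* was -0.0085 in the second series alone, -0.0025 with the endothelial score and -0.011 with the motor neuron score. *Ramp2* was 0.0023 in the first series alone. *Calca* was 0.14 in the first series alone, 0.46 with the sensory ganglion score and 0.035 with the motor neuron score and F1/proestrus replicate 5 left out, and *Calcb* was 0.13 and 0.42 under the first and second of these. The sensory ganglion score was 7.34 in F1/proestrus replicate 5 and at most 0.097 in any other sample. As a covariate it in effect sets that sample apart, so it is not a check separate from leaving the sample out. With a sample left out, the ranges were -0.050 to 0.056 for *Ramp1*, -0.034 to 0.10 for *Calcrl*, -0.028 to 0.082 for *Adm*, -0.97 to 0.45 for *Calca* and -0.54 to 0.44 for *Calcb*. Between the sexes, the first series alone gave -0.019 for *Ramp1* and -0.0095 for *Adm*, the second gave 0.0029 for *Calcrl*, and the motor neuron score with F1/proestrus replicate 5 left out gave 0.15 for *Calcb*. *Adm* ran from -0.012 to 0.063 with a sample left out. Between the library series *Calcb* was -0.47 with the sensory ganglion score and -0.11 with the motor neuron score and F1/proestrus replicate 5 left out, and with a sample left out the ranges were -0.095 to 0.0059 for *Calcrl*, -0.019 to 0.79 for *Calca* and -0.53 to 0.22 for *Calcb*.

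Whether replicate numbers pair the samples was not settled. Of 18 same-numbered pairs, 9 had deviations correlated above 0.1 (r from -0.10 to 0.23), and 7 of 18 samples correlated best with their own number. These counts cannot decide it, since no count for differently numbered samples stands beside them. With the replicate block, 148 genes were called between the sexes and 0 between the female groups, with no member among them, and between the female groups *Calca* was 0.083 and *Calcb* 0.31. Numbers 1 to 3 and 4 to 6 are the library series.

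Over the longest transcript, mean levels were 46.4 RPKM for *Ramp1*, 50.0 RPKM for *Ramp2* and 4.01 RPKM for *Adm*. Of the 24 most similar genes, 10 were shared without F1/proestrus replicate 5 and 11 without centring. At these depths every member had at least 68 counts in each sample, while *Adm2* and *Iapp* were too low to test.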

Other observations

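Markers of the cell types that a dorsal horn dissection could hold were present at unequal levels, by mean RPKM over the 18 samples. Among Schwann cell markers *Cldn19* was the lowest (3.28 RPKM). Motor neuron markers ran from *Mnx1* (0.450 RPKM) to *Slc18a3* (15.1 RPKM), dorsal horn neuron markers from *Pax2* (0.431 RPKM) to *Slc17a6* (47.7 RPKM), and endothelial markers from *Cdh5* (1.22 RPKM) to *Ly6c1* (26.1 RPKM). Mural cell markers ran from *Myh11* (1.49 RPKM) to *Rgs5* (9.77 RPKM) and summed to 23.2 to 42.4 RPKM, and markers of meningeal fibroblasts ran from *Slc13a4* (1.77 RPKM) to *Ogn* (25.5 RPKM) and summed to 40.3 to 113 RPKM, with F1/proestrus replicate 5 the highest female (85.0 RPKM). Neutrophil markers ran from *Mpo* (0.149 RPKM) to *S100a9* (4.01 RPKM). Of the sensory ganglion markers *Trpv1* was the lowest (0.531 RPKM with F1/proestrus replicate 5 included), and *Scn10a* and *Scn11a* had no count in 5 and 2 samples.

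The markers of motor neurons were not called between the groups. All 5 had lower estimates in males than in females (median log2 fold change -0.46) and higher ones in F2/metestrus than in F1/proestrus (median 0.34), with 0 of 5 past the FDR and 0 with an unadjusted p under 0.05 in either comparison (edgeR).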
